A study of Mus musculus with 4 samples.

Results

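A set of 32 mouse genes of glycolysis, pyruvate use and the hypoxia response was followed through 4 single-cell libraries of mammary epithelium. The genes were chosen by name, with earlier results of these data known. All 32 of them were found among the 52636 genes of the count matrices. The study crossed 2 genotypes of Esr1, the gene of estrogen receptor alpha, with 2 treatments: mice without the mutation (WT) or with the receptor mutation Y541S, in which a serine replaces a tyrosine, received vehicle (MCT) or the oral estrogen receptor antagonist giredestrant at 30 mg/kg. Every animal, controls included, was 6 months old, carried pellets of estradiol (E2) and progesterone (P4) and was dosed daily for 4 days, so vehicle libraries show hormone-stimulated glands. Epithelial cells were sorted for the surface protein EpCAM and counted by 3′ tags (10x Genomics, kit v3.1). Each of the 4 groups is 1 library and the number of animals behind it is not given, so differences between libraries carry counting error alone and no p-value, and treatment, animal and library preparation cannot be told apart.

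Glycolysis splits glucose into pyruvate. Slc2a1 imports glucose, hexokinases (Hk1, Hk2) trap it as glucose 6-phosphate, Gpi1 isomerises it, and the phosphofructokinase subunits (Pfkl, Pfkm, Pfkp), which Pfkfb3 stimulates by making fructose 2,6-bisphosphate, commit it to breakdown. Aldolases (Aldoa, Aldoc), Tpi1, Gapdh, Pgk1, Pgam1, enolases (Eno1, Eno2) and Pkm carry it on to pyruvate. Lactate dehydrogenases (Ldha, Ldhb) exchange pyruvate and lactate, which Slc16a1 and Slc16a3 carry across the membrane. Pyruvate enters mitochondrial oxidation through pyruvate dehydrogenase (subunit Pdha1), which the kinases Pdk1, Pdk2, Pdk3 and Pdk4 switch off. The transcription factor subunit Hif1a accumulates at low oxygen and drives many of these genes together with Vegfa (an angiogenic factor), Bnip3 (mitophagy), Car9 (a carbonic anhydrase) and Egln3 (a prolyl hydroxylase that marks Hif1a for destruction), and Ndrg1 is a hypoxia- and stress-induced gene. In the mammary gland, hormone-sensing luminal cells hold the estrogen and progesterone receptors, secretory luminal cells make milk, and basal cells contract.

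The core of the element through which hypoxia-inducible factors bind DNA reads ACGTG or GCGTG, and RefSeq promoter sequences (build GRCm38.p6) were searched for both on both strands. The sequences below are from members at least 1.5-fold higher or lower in a giredestrant library. Their windows held 3 or more matches and overlapped no annotated exon. All 4 members shown were lower in a giredestrant library, though direction was not a criterion. Windows of Bnip3, Pdk3, Pfkfb3, Pfkp and Hk1 also held 3 or more matches and were left out for overlapping an exon. Each is the 250 bases before the annotated start, 5′ to 3′ on the gene's strand, with the matches in capitals.
Ldha: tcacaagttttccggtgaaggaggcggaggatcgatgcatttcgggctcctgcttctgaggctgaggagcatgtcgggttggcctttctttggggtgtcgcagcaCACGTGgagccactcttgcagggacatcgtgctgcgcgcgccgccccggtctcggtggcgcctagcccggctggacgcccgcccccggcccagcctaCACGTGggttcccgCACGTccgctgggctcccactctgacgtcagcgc
Slc16a1: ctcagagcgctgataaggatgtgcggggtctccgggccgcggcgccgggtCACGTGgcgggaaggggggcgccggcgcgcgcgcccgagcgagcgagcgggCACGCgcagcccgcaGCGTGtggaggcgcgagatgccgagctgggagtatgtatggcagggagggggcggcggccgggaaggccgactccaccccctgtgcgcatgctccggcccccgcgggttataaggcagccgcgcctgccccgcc
Pgam1: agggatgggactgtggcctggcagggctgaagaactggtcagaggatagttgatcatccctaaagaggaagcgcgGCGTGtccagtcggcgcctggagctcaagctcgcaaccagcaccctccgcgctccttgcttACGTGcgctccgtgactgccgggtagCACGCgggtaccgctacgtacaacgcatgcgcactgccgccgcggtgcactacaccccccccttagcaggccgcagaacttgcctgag
Hif1a: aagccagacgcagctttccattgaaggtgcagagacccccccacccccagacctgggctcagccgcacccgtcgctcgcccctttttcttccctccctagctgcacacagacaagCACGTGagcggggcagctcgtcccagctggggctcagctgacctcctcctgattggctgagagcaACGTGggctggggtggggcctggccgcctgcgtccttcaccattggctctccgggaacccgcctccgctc
The Ldha window (chr7:46845554-46845803, plus strand) held 5 matches, of which 4 lie in its 2 CACGTG palindromes, since CACGTG contains ACGTG on each strand. The Slc16a1 window (chr3:104638414-104638663, plus strand) held 4, the Pgam1 window (chr19:41911621-41911870, plus strand) 3 and the Hif1a window (chr12:73907617-73907866, plus strand) 3. The Ldha and Hif1a windows lie inside the annotated span of their genes, between exons, before a downstream start. A match was present in 78.3% of the 46 windows of the 31 members with an entry, and in 38.6% of all 32851 windows of that length. A window with 3 or more matches made up 21.7% of the members' windows and 6.58% of all. Matches are letters in a sequence, and binding was not measured.

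The libraries held 8114, 3667, 7812 and 10469 barcodes in the order WT vehicle, WT giredestrant, Y541S vehicle and Y541S giredestrant, with median depths of 9826, 18690, 14426 and 5099 UMIs (unique molecular identifiers, each 1 captured transcript). This order holds for every set of 4 values below. Of 30062 barcodes, 25950 were kept, and any pair of libraries shared between 10 and 29 barcode sequences. Cells were classed by UMIs of gate genes per 10000: 5234 were hormone-sensing with low Krt14, 1026 hormone-sensing with high Krt14, 4170 secretory and 12422 basal, although the labels name mature luminal cells as the source. Among hormone-sensing genes that the gate did not use, Pgr stood at 396, 91.9, 462 and 348 CPM (CPM, UMIs scaled to 1000000 per class and library) in Krt14-low hormone-sensing cells and at 11.9, 12.99, 10.8 and 12.7 CPM in basal cells. It was lowest in WT giredestrant among the hormone-sensing values. The other such genes (Cited1, Ly6a and Prom1) are not given here. Basal markers summed to 50.7, 24.8, 29.5 and 162 CPM in hormone-sensing Krt14-low cells against 17146, 14897, 18007 and 16810 in basal cells. That list includes the basal gate genes and Krt14, so the gating itself held the sum low in hormone-sensing Krt14-low cells. Median depth of hormone-sensing Krt14-low cells was 28914, 29584, 25121 and 9260 UMIs, so the Y541S giredestrant library was the shallowest there too.

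Giredestrant libraries were compared with vehicle libraries of the same genotype within each class. Ratios are log2 CPM ratios relative to the median gene of the comparison, which itself lay 0.33 above 0 in WT and 0.21 above 0 in Y541S hormone-sensing cells. A gene entered at a mean of 10 or more CPM over the 4 libraries of the class (tested, in what follows, means no more than that), and was called at 1.5-fold. In hormone-sensing Krt14-low cells with the WT receptor, 3 of 25 tested members were called higher with giredestrant and 9 lower, against 14.3% and 18.1% of all genes. Their median relative log2 ratio was -0.32, against 0 for all genes. Without the shift to the median gene that median was 0.02 and the calls were 6 higher and 5 lower. The shares of all genes called without the shift were not computed, so the unshifted calls have no background. In Y541S, 4 of 25 were higher and 11 lower, against 16.6% and 22.7% of all genes, with a median of -0.46. The share of members called lower was thus 36% in WT and 44% in Y541S, and the share called higher, 12% and 16%, lay near the background. Every member called higher, and Pdk4 and Slc16a1 among those lower in WT, was under 10 CPM in a library of this class. They passed the filter through libraries where they were high, so their calls are no support for these shares.

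In secretory cells more members were called higher than lower. Of 27 tested, 4 were higher and 3 lower in WT, against 4.14% and 5.17% of all genes, and 8 higher and 2 lower in Y541S, against 10.2% and 15.1%. In basal cells 1 of 25 was higher and 6 lower in WT, against 6.47% and 7.95%, and 4 were higher and 2 lower in Y541S, against 5.74% and 7.8%. Across the 6 giredestrant comparisons 23 of the 32 members passed the fold at least once. The share of all genes that did so was not computed, so this count only describes. Another 5 were tested and never passed it (Pfkl, Pkm, Pdk1, Pdk2 and Pdha1), of which Pdk1 and Pdk2 were tested in secretory cells only. The other 4 were too low to be tested in any class (Pfkm, Eno2, Slc16a3 and Car9). Without the shift Pfkl passed the fold upward in WT hormone-sensing Krt14-low cells, from 20.2 to 34.9 CPM. The heat map sets the 6 comparisons side by side.

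**Figure D1:**
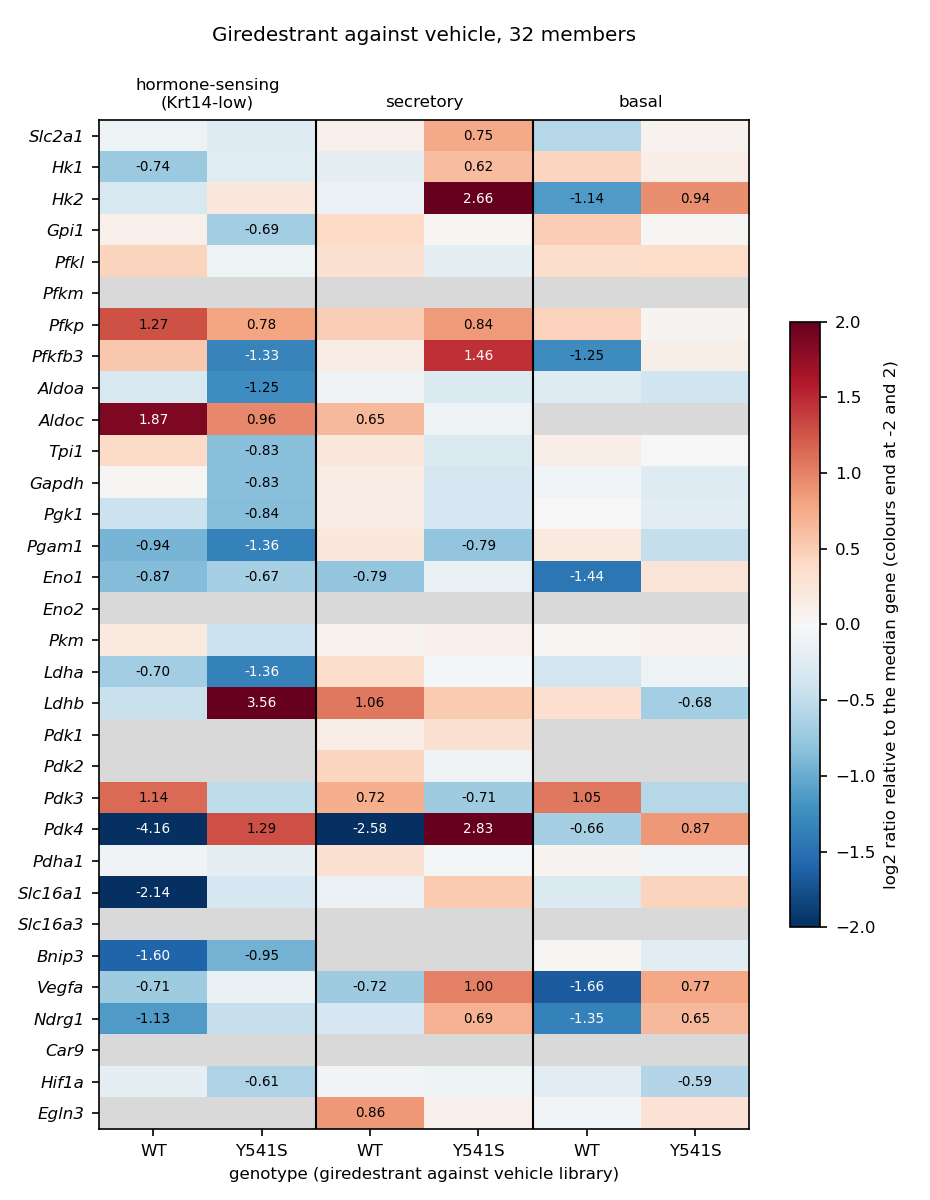
Log2 ratio of the giredestrant over the vehicle library for all 32 members (rows), relative to the median gene, in 3 cell classes and 2 genotypes (columns). Printed values are at least 1.5-fold, and grey cells were not tested. Pdk4 is blue in all 3 WT columns and red in all 3 Y541S columns.

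Pdk4, the kinase that shuts pyruvate out of mitochondrial oxidation in fasting, stood lower with giredestrant in every WT class and higher in every Y541S class. In hormone-sensing Krt14-low cells its levels were 79.05, 5.56, 45.8 and 129 CPM. The WT giredestrant library was the lowest and the Y541S giredestrant library the highest of the 4. The relative log2 ratio with giredestrant was -4.16 (95% counting interval -4.38 to -3.95) in WT and 1.29 (95% counting interval 1.203 to 1.37) in Y541S. Secretory cells gave 158, 27.4, 33.1 and 232 CPM, with ratios of -2.58 (95% counting interval -2.74 to -2.42) and 2.83 (95% counting interval 2.72 to 2.94). Basal cells gave 91.1, 62.02, 89.6 and 169 CPM, a narrower spread, with ratios of -0.66 (95% counting interval -0.75 to -0.57) and 0.87 (95% counting interval 0.81 to 0.94), of which the WT value fell short of the fold without the shift, at -0.56. In secretory cells the Y541S vehicle library was already low, so both the WT giredestrant and the Y541S vehicle library lay well below the other pair. Thinned to 3000 UMIs per cell, the share of hormone-sensing Krt14-low cells with a Pdk4 UMI was 18.8%, 1.47%, 9.12% and 25.7% (56.6%, 7.63%, 35.8% and 47.6% before thinning), the same order as the CPM.

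The paralog Pdk3 moved against Pdk4. Its levels were 7.05, 19.5, 13.5 and 10.9 CPM in hormone-sensing Krt14-low cells, 13.5, 23.1, 18.3 and 11.1 CPM in secretory cells and 26.6, 59.1, 37.999 and 26.2 CPM in basal cells. In each class the WT giredestrant library was the highest of the 4. The giredestrant ratios in WT were 1.14, 0.72 and 1.05 in that order of classes. In Y541S they were -0.51, -0.71 and -0.58, of which the secretory value alone passed the fold. The enzyme that these kinases act on was flat: the giredestrant ratios of Pdha1 lay between -0.199 and 0.298 over the 6 comparisons.

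**Figure D2:**
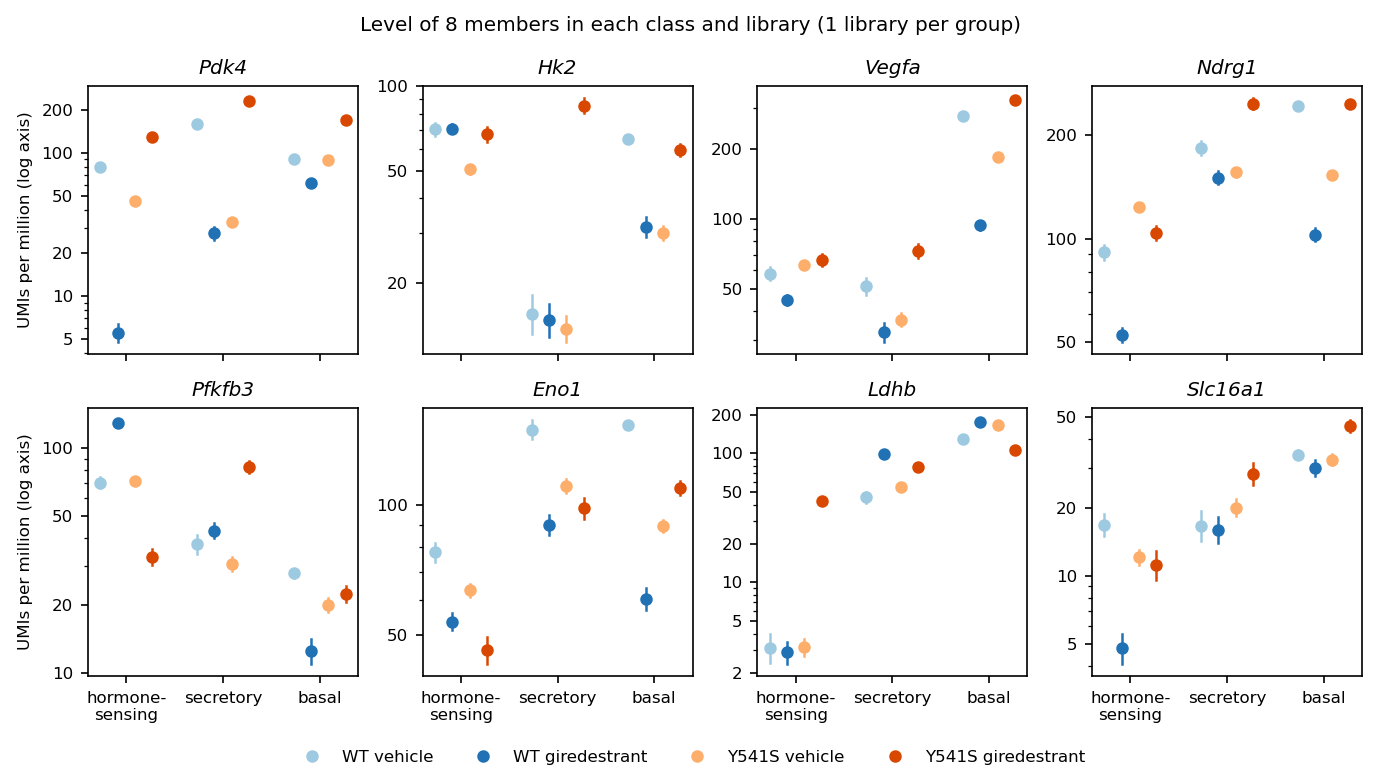
Level of 8 members (CPM, log axis) in the 3 classes, with 1 point per library and lines for exact 95% Poisson intervals (counting error only). Pdk4 in hormone-sensing cells runs from 5.56 in WT giredestrant to 129 in Y541S giredestrant, and Ldhb there is near 3 in all libraries but Y541S giredestrant.

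The enzymes of the lower pathway were the main group called lower in hormone-sensing Krt14-low cells of the Y541S giredestrant library. From aldolase to pyruvate kinase, 6 of 8 tested members were at least 1.5-fold lower with giredestrant in Y541S (22.7% of all genes were), and 2 of 8 in WT, near the 18.1% of all genes. Without the shift to the median gene the counts were 5 of 8 in Y541S and 1 of 8 in WT, with no share of all genes computed. This group of steps was drawn up with earlier results of these data known, so its counts only describe. Aldoa, which cleaves fructose bisphosphate, stood at 332, 336, 323 and 157 CPM, with a Y541S ratio of -1.25 (95% counting interval -1.31 to -1.19) and a WT ratio of -0.32. The first 3 libraries were nearly level and the Y541S giredestrant library was under them all. Pgam1, the phosphoglycerate mutase, stood at 252, 166, 281 and 127 CPM, low in both giredestrant libraries, with ratios of -0.94 in WT and -1.36 (95% counting interval -1.42 to -1.29) in Y541S. Ldha, which turns pyruvate into lactate, stood at 305, 237, 359 and 162 CPM, with ratios of -0.698 and -1.36 (95% counting interval -1.42 to -1.300). Ldha and Pgam1, whose windows were printed above, were thus lower with giredestrant in both genotypes. Eno1, the enolase, was also lower in both, at 77.6, 53.6, 63.3 and 46.04 CPM, with ratios of -0.87 and -0.67. Without the shift, Ldha fell short of the fold in WT, at -0.36, and Eno1 in both genotypes, at -0.53 in WT and -0.46 in Y541S.

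Gapdh, Tpi1, Pgk1 and Gpi1 passed the fold relative to the median gene in Y541S and not in WT. Without the shift Gpi1 fell short in Y541S, at -0.48, and Tpi1 passed the fold upward in WT, at 0.71. Gapdh stood at 504, 643, 550.4 and 357 CPM, with ratios of 0.02 in WT and -0.83 in Y541S. Tpi1 stood at 126, 207, 175 and 114 CPM, with ratios of 0.38 and -0.83. For both, the highest library was WT giredestrant and the lowest Y541S giredestrant. Pgk1 (110.03, 103, 129 and 82.7 CPM) had ratios of -0.42 and -0.84, and Gpi1 (105, 142, 118 and 84.6 CPM) of 0.11 and -0.69. Pkm, the last step, stayed within the fold at 307, 445, 404 and 345 CPM. Pfkfb3, the activator of phosphofructokinase, was highest in WT giredestrant and lowest in Y541S giredestrant, at 70.4, 129.7, 71.8 and 32.9 CPM, with ratios of 0.55 and -1.33 (95% counting interval -1.47 to -1.203), and without the shift it passed the fold upward in WT, at 0.88. Whether the WT and Y541S ratios differ was not tested, since each rests on 1 pair of libraries. In the same cells the summed dissociation and heat shock genes were 5189, 7916, 5159 and 3730 CPM, and their part in these ratios was not tested. The plot of the core enzymes shows that the 8 enzymes called lower in Y541S hormone-sensing cells stayed nearer the median gene in Y541S secretory and basal cells.

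**Figure D3:**
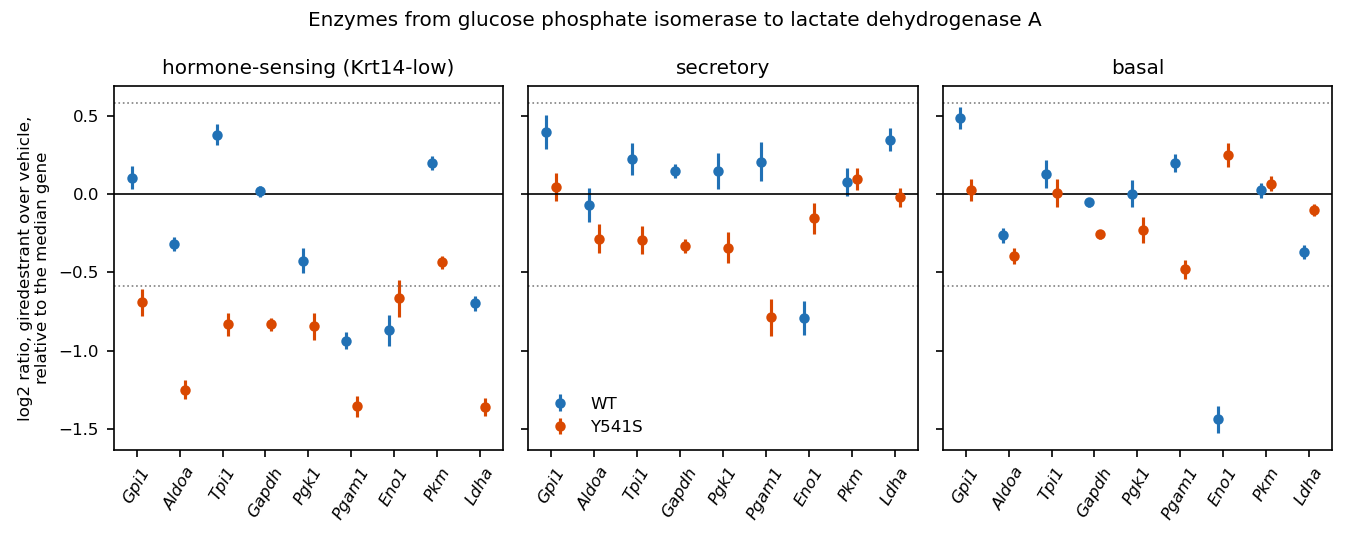
Log2 ratio of giredestrant over vehicle, relative to the median gene, for 9 enzymes in pathway order in 3 classes, with 95% counting intervals. Dotted lines mark 1.5-fold. In hormone-sensing cells 8 of the 9 Y541S points lie below the lower line, and Pkm does not.

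A smaller group was higher with giredestrant in hormone-sensing Krt14-low cells. Aldoc, the aldolase best known from brain, stood at 9.24, 42.5, 18.1 and 40.5 CPM, high in both giredestrant libraries, with ratios of 1.87 (95% counting interval 1.64 to 2.103) and 0.96 (95% counting interval 0.81 to 1.101). Pfkp, the platelet-type phosphofructokinase, stood at 5.29, 16.04, 7.72 and 15.3 CPM, again high in both, with ratios of 1.27 and 0.78. Ldhb, the lactate dehydrogenase subunit of oxidative tissues, was near the floor in 3 libraries and not in the last, at 3.098, 2.87, 3.15 and 43.000 CPM. Its Y541S ratio was 3.56 (95% counting interval 3.32 to 3.81). After thinning to 3000 UMIs, 10.7% of these cells held an Ldhb UMI in the Y541S giredestrant library, against 0.809%, 0.783% and 0.838% in the other 3 (28.6% against 7.61%, 7.73% and 6.61% before thinning). Basal cells of that library held Ldhb at 107 CPM, and the basal markers of its hormone-sensing cells summed to 162 CPM against 16810 in its basal cells. The gating bounds that sum, and the part of basal transcripts in the Ldhb level was not tested. Pfkp, Aldoc, Ldhb, Pdk3, Pdk4 and Slc16a1 were under 10 CPM in at least 1 library of this class, so these 6 passed the filter through the libraries where they were high, and their calls are no support for the counts above.

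Of the hypoxia-response members, Bnip3 was lower with giredestrant in hormone-sensing Krt14-low cells of both genotypes, at 30.9, 12.8, 18.98 and 11.4 CPM, with ratios of -1.600 (95% counting interval -1.78 to -1.42) and -0.95 (95% counting interval -1.18 to -0.72). Slc16a1, the lactate transporter, was lower in WT alone, at 16.7, 4.78, 12.1 and 11.1 CPM, with ratios of -2.14 (95% counting interval -2.42 to -1.87) and -0.33. Ndrg1 stood at 91.1, 52.3, 124 and 104 CPM and Vegfa at 58.2, 44.96, 63.2 and 66.4 CPM. Both were lowest in WT giredestrant, with WT ratios of -1.13 and -0.71 and Y541S ratios of -0.46 and -0.14. The Hif1a transcript itself varied little, at 289, 323, 326 and 246 CPM, with a Y541S ratio of -0.61 that only just passed the fold. Hk1 (129.6, 97.6, 81.9 and 79.9 CPM) passed it in WT at -0.74. Without the shift these last calls were lost for Vegfa in WT (-0.37), Hif1a in Y541S (-0.41) and Hk1 in WT (-0.41).

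In basal cells the angiogenic factor Vegfa, Ndrg1 and hexokinase 2 were lower with giredestrant in WT and higher in Y541S. Vegfa stood at 276, 93.6, 184 and 322 CPM, with ratios of -1.66 (95% counting interval -1.73 to -1.59) and 0.77 (95% counting interval 0.72 to 0.81). Ndrg1 stood at 243, 103, 153 and 247 CPM, with ratios of -1.35 (95% counting interval -1.42 to -1.28) and 0.65 (95% counting interval 0.598 to 0.703). Hk2, the inducible hexokinase, stood at 64.7, 31.6, 30.1 and 59.4 CPM, with ratios of -1.14 (95% counting interval -1.26 to -1.01) and 0.94 (95% counting interval 0.82 to 1.05). In all 3 genes the WT vehicle and Y541S giredestrant libraries were the high pair. Eno1 was highest in WT vehicle and lowest in WT giredestrant, at 153, 60.5, 89.4 and 109 CPM, with ratios of -1.44 and 0.25. Pfkfb3 followed it at 27.7, 12.5, 20.1 and 22.5 CPM, with ratios of -1.25 and 0.12. Slc2a1, the main glucose importer, stood at 189, 137, 122 and 132 CPM and stayed within the fold with giredestrant in both genotypes. Ldhb was lower in Y541S, at 128, 175, 166 and 107 CPM, with a ratio of -0.68. Hif1a was called lower in Y541S as well, at 248.8, 227, 264 and 180.4 CPM, with a ratio of -0.59 that just passed the fold and was lost in 3 of 10 alternatives, at -0.55 without the shift. Dissociation and heat shock genes summed to 3365, 6830, 3207 and 3893 CPM in these cells, highest in the library where Vegfa, Ndrg1, Eno1 and Pfkfb3 were lowest, and their part in the result was not tested. Fibroblast markers summed to 149, 305, 267 and 417 CPM and macrophage and dendritic markers to 77.5, 136, 53.9 and 159 CPM. Adipocyte markers summed to 17.4, 13.04, 23.3 and 66.7 CPM and endothelial markers to 7.33, 7.43, 10.3 and 33.7 CPM. Each of these lists was highest in Y541S giredestrant, where keratinocyte markers were lowest, at 14.9 CPM. The part of these markers in the result was not tested.

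In secretory cells the upper part of the pathway was higher in the Y541S giredestrant library: from glucose uptake to phosphofructokinase, 5 of 7 tested members passed the fold upward in Y541S (10.2% of all genes did) and 0 of 7 in WT (4.14%). This group of steps, too, was drawn up with earlier results known, so its counts only describe. Hk2 stood at 15.5, 14.8, 13.7 and 85.3 CPM, level in 3 libraries and several times higher in the last, with a Y541S ratio of 2.66 (95% counting interval 2.48 to 2.83) and a WT ratio of -0.12. Pfkfb3 stood at 37.4, 43.05, 30.5 and 82.7 CPM, with a Y541S ratio of 1.46 (95% counting interval 1.32 to 1.59). Pfkp stood at 63.9, 93.2, 56.5 and 99.98 CPM, high in both giredestrant libraries, with ratios of 0.49 and 0.84. Slc2a1 (93.4, 104, 79.6 and 132 CPM) and Hk1 (94.7, 86.03, 61.5 and 93.4 CPM) had Y541S ratios of 0.75 and 0.62, and the Hk1 value fell to 0.45 with cells counted in every gate they passed. Hormone-sensing markers in these secretory cells summed to 155, 142, 117 and 155 CPM and basal markers to 219, 157, 150.2 and 184 CPM, so the basal sum was highest in WT vehicle and the hormone-sensing sum was alike in WT vehicle and Y541S giredestrant. Both lists include gate genes, which the gating keeps low in secretory cells. Macrophage and dendritic markers summed to 20.9, 47.9, 10.9 and 50.5 CPM, high in both giredestrant libraries. The median mitochondrial share was 1.69%, 1.66%, 1.59% and 2.81% and the median depth 12999, 20809, 14988 and 6991 UMIs, so the Y541S giredestrant cells had the highest share and the least depth. The part of these values in the ratios was not tested.

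Vegfa in secretory cells repeated its basal pattern at a lower level, 51.3, 32.5, 36.8 and 72.7 CPM, with ratios of -0.72 in WT and 1.003 in Y541S. Ndrg1 stood at 184, 151, 156 and 248 CPM and passed the fold in Y541S, at 0.69. Egln3, the prolyl hydroxylase, was higher in WT giredestrant, at 37.6, 71.01, 47.7 and 50.5 CPM, with ratios of 0.86 (95% counting interval 0.69 to 1.03) and 0.101. Ldhb was higher in both giredestrant libraries, at 45.7, 99.04, 55.2 and 78.3 CPM, and passed the fold in WT, at 1.06 against 0.53 in Y541S. Aldoc passed it in WT, at 0.65 (98.5, 161, 126 and 116 CPM). Eno1 was lower in WT, at -0.79 (149, 89.7, 111 and 98.03 CPM), and Pgam1 lower in Y541S, at -0.79 (81.3, 97.6, 109 and 62.5 CPM). Relative to the median gene, Eno1 was the one lower-pathway enzyme called lower with giredestrant in WT in all 3 classes. Its near-identical copy Eno1b held between 0.31 and 2.48 CPM in these classes, so few reads were assigned to the copy.

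Y541S was then set against WT under the same treatment. These ratios share libraries with the ones above, and are given as values side by side. Under vehicle few members were called: 2 higher and 4 lower of 25 in hormone-sensing Krt14-low cells (background 4.96% and 5.94%), 0 and 2 of 27 in secretory cells (2.12% and 4.58%) and 0 and 5 of 25 in basal cells (2.55% and 4.28%). The 5 basal members lower in Y541S were Slc2a1 (-0.67), Hk2 (-1.13), Eno1 (-0.81), Vegfa (-0.62) and Ndrg1 (-0.701). The hormone-sensing members lower in Y541S were Hk1 (-0.78), Hk2 (-0.59), Pdk4 (-0.902) and Bnip3 (-0.82), and Aldoc (0.85) and Pdk3 (0.82) were higher. Aldoc, Pdk3 and Pdk4 were under 10 CPM in a library of this class and passed the filter through libraries where they were high. Their calls are no support for the hormone-sensing counts. The 2 secretory members were Pdk4 (-2.27) and Hk1 (-0.64). Of these calls, hormone-sensing Hk2 (-0.48) and basal Vegfa (-0.58) were lost without the shift, and secretory Hk1 (-0.52) with cells weighted equally.

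Between the giredestrant libraries, 4 members were higher and 6 lower in Y541S hormone-sensing Krt14-low cells (16.9% and 19.3% of all genes), 6 and 1 in secretory cells (11.4% and 13.9%) and 8 and 2 in basal cells (10.4% and 10.9%). Of the hormone-sensing calls, the higher Ldhb, Pdk4 and Slc16a1 and the lower Pdk3 were under 10 CPM in a library of this class. They passed the filter through libraries where they were high, so their calls are no support for the hormone-sensing counts. Pdk4, Slc16a1 and Ndrg1 were higher in Y541S in all 3 classes, and Pdk3 was lower in all 3. The Pdk4 ratios were 4.55 in hormone-sensing, 3.15 in secretory and 1.49 in basal cells. Slc16a1 gave 1.23, 0.897 and 0.66, from levels in secretory cells of 16.6, 15.96, 20.01 and 28.2 CPM and in basal cells of 34.2, 30.04, 32.5 and 45.8 CPM. Pdk3 gave -0.83, -0.99 and -1.12.

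The 3 classes were compared with one another over the 4 libraries, with the library as a block. No genotype and treatment group is repeated, so the error is the variation of the class difference over 4 conditions. The SDs also span those conditions. Hormone-sensing cells stood apart from secretory cells by high Hif1a transcript and low Egln3. Hif1a was 296 ± 37.3 against 66.04 ± 3.56 CPM (SD, n = 4), a log2 difference of 2.29 (SE 0.13, edgeR adjusted p = 7.9e-06). Egln3 was 0.904 ± 0.485 against 51.7 ± 14.01 CPM (SD, n = 4), a log2 difference of -5.78 (SE 0.303, edgeR adjusted p = 4.7e-06). The classes did not overlap in either gene. Of the 32 members, 7 were higher in hormone-sensing cells (background 24.9%) and 9 lower (23.7%), so neither share exceeded that of all genes by much. The higher ones were Hif1a, Slc16a3, Bnip3, Hk2, Aldoa, Pgam1 and Pkm, and the lower ones Egln3, Car9, Ldhb, Pfkp, Aldoc, Pdk1, Ndrg1, Eno1 and Slc2a1. The isozymes split between the classes: Aldoa was 287 ± 86.8 against 118 ± 11.4 CPM (SD, n = 4), a log2 difference of 1.38 (SE 0.21, edgeR adjusted p = 0.00081), whereas Aldoc was 27.6 ± 16.5 against 125 ± 26.2 CPM (SD, n = 4), a log2 difference of -2.24 (SE 0.24, edgeR adjusted p = 0.00012). Pfkp was 11.1 ± 5.401 against 78.4 ± 21.4 CPM (SD, n = 4), a log2 difference of -2.78 (SE 0.18, edgeR adjusted p = 1.2e-05). Hk2 passed at a log2 difference of 1.57, a call lost without the library block (edgeR adjusted p = 0.14) and without the WT vehicle (0.087), WT giredestrant (0.12) or Y541S vehicle library (0.13), and the groups overlapped, since the Y541S giredestrant secretory cells held more of it than any hormone-sensing sum.

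Basal cells held more Vegfa, Ldhb, Slc2a1 and lactate transporter Slc16a1 than hormone-sensing cells. Vegfa was 58.2 ± 9.44 against 219 ± 101 CPM (SD, n = 4), a log2 difference of -1.87 (SE 0.23, edgeR adjusted p = 0.00012). Slc2a1 was 59.6 ± 5.15 against 145 ± 30.002 CPM (SD, n = 4), a log2 difference of -1.35 (SE 0.19, edgeR adjusted p = 0.00031). Ldhb was 13.03 ± 19.98 against 144 ± 32.1 CPM (SD, n = 4), a log2 difference of -4.53 (SE 0.82, edgeR adjusted p = 0.0012). In each of the 3 genes no library's hormone-sensing level reached a basal level. In all, 7 members were higher in hormone-sensing cells (Aldoc, Pfkfb3, Tpi1, Hk1, Pkm, Pdha1 and Pdk2; background 31.8%) and 13 lower (Ldhb, Car9, Egln3, Pfkp, Vegfa, Slc16a1, Pdk3, Slc2a1, Slc16a3, Ndrg1, Eno1, Gapdh and Pfkl; 30.8%). Without the Y541S vehicle library the count of higher members was 4, and calls in either direction over all genes fell from 10688 to 8125.

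Secretory cells were marked among the 3 classes by Aldoc and Egln3 and by little Hif1a. Against basal cells Aldoc was 125 ± 26.2 against 5.798 ± 1.699 CPM (SD, n = 4), a log2 difference of 4.22 (SE 0.26, edgeR adjusted p = 5.5e-06). Hif1a was 66.04 ± 3.56 against 230.01 ± 36.3 CPM (SD, n = 4), a log2 difference of -2.01 (SE 0.13, edgeR adjusted p = 7.3e-06). In all, 6 members were higher in secretory cells (Aldoc, Egln3, Pdk1, Tpi1, Pdk2 and Pdha1; background 25.1%) and 12 lower (Slc16a3, Vegfa, Hif1a, Pdk3, Aldoa, Bnip3, Pgam1, Slc16a1, Pfkp, Slc2a1, Pfkm and Pkm; 25.5%). Without the Y541S vehicle library the count of lower members was 7, and calls in either direction over all genes fell from 8639 to 5923. Pdk4, the member that differed most between libraries, passed the threshold in none of the class comparisons, with edgeR adjusted p between 0.066 and 0.36. Gpi1, Pgk1, Eno2 and Ldha also passed in none.

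**Figure D4:**
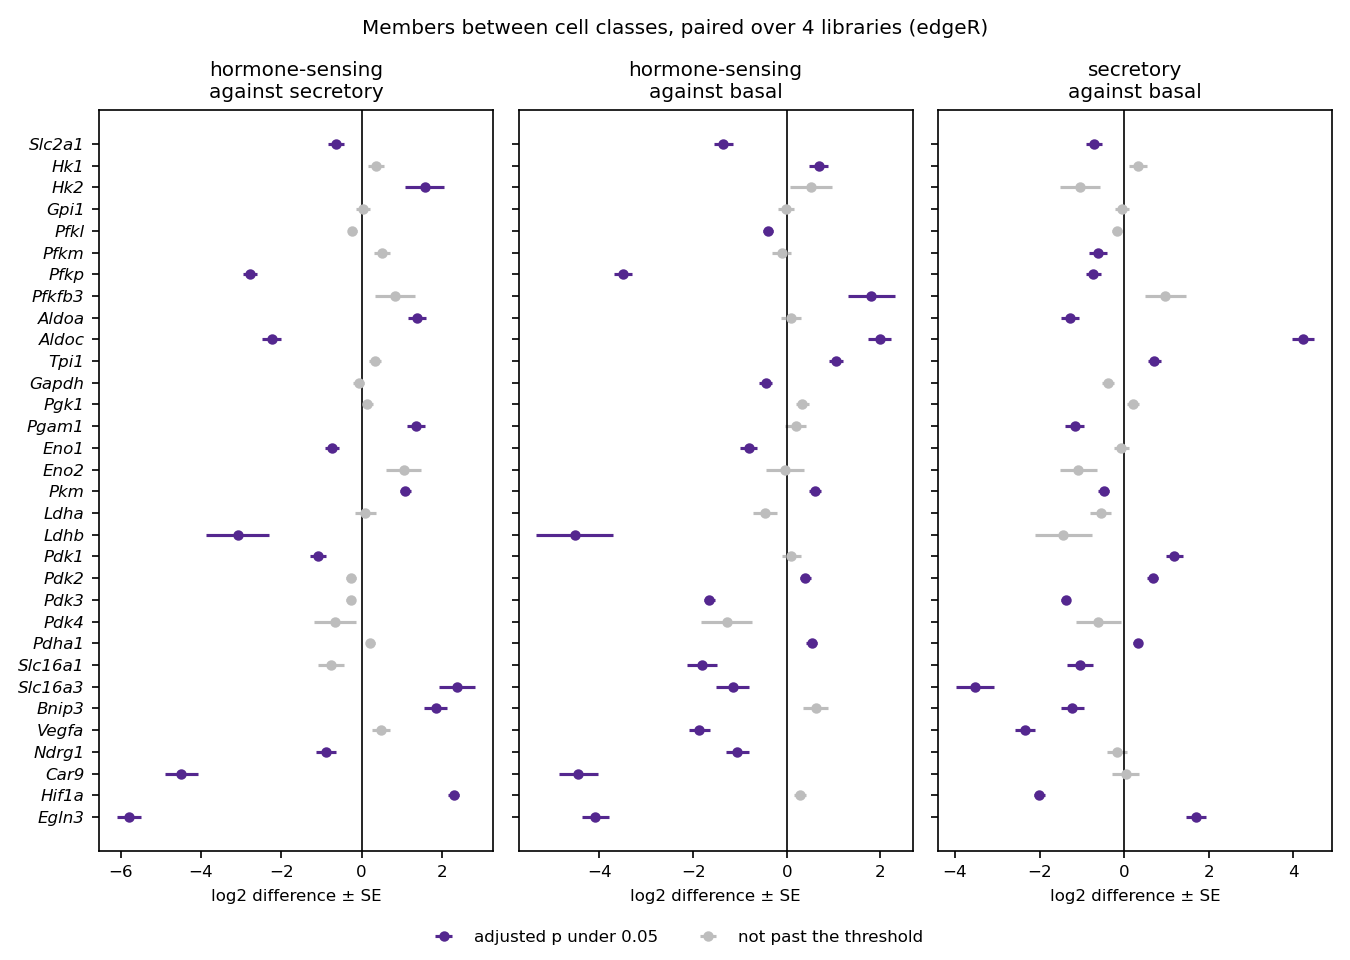
Log2 difference between classes for all 32 members (x axis, with SE), from edgeR with the library as a block over 4 libraries. Purple points passed an adjusted p of 0.05 over all genes, and grey points did not. Egln3, Car9, Ldhb and Pfkp lie far to the left in both comparisons of hormone-sensing cells.

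Hormone-sensing cells with high Krt14 numbered 980 in the Y541S giredestrant library and 15, 9 and 22 in the other 3, so they could be compared with Krt14-low cells in that 1 library only, by ratio and without a test. The Krt14-high cells held more hexokinase 2, Pfkp and Ndrg1. Hk2 was 167 against 67.5 CPM, a relative log2 ratio of 1.52 (95% counting interval 1.41 to 1.64). Ndrg1 was 255 against 104 CPM, a relative log2 ratio of 1.51 (95% counting interval 1.42 to 1.61). Pfkp was 38.01 against 15.3 CPM, a relative log2 ratio of 1.53 (95% counting interval 1.29 to 1.77). Of 24 tested members 7 were higher (Pfkp, Hk2, Ndrg1, Slc16a1, Slc2a1, Pdk4 and Ldha; background 17.1%) and 4 lower (Aldoc, Ldhb, Pfkl and Hk1; 14.8%). The calls of Ldha, Pdk4, Hk1 and Pfkl were the unsteady ones: they held in 2, 4, 4 and 5 of 6 alternatives, and the other 7 held in all 6. Aldoc was 5.03 against 40.5 CPM, a relative log2 ratio of -2.79 (95% counting interval -3.26 to -2.36). Aldoc passed the filter only through the Krt14-low cells, where it was high, so its call is no support for the count of lower members. Ldhb was 11.3 against 43.000 CPM, a relative log2 ratio of -1.71 (95% counting interval -2.03 to -1.41). The enzymes from Aldoa to Pkm other than Aldoc and Eno2 lay within the fold between the Krt14-high and Krt14-low cells, and Gapdh was 291 against 357 CPM, a relative log2 ratio of -0.08 (95% counting interval -0.14 to -0.01). Slc16a3, the lactate exporter, was under the filter, at 12.6 against 4.28 CPM from 113 and 69 UMIs. The Krt14-high cells held basal markers at 2467 CPM in sum, Krt14 among them, against 16810 in the basal cells of the library, and passing the gate without Areg was less common in them, at 36.4% against 74.9%.

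**Figure D5:**
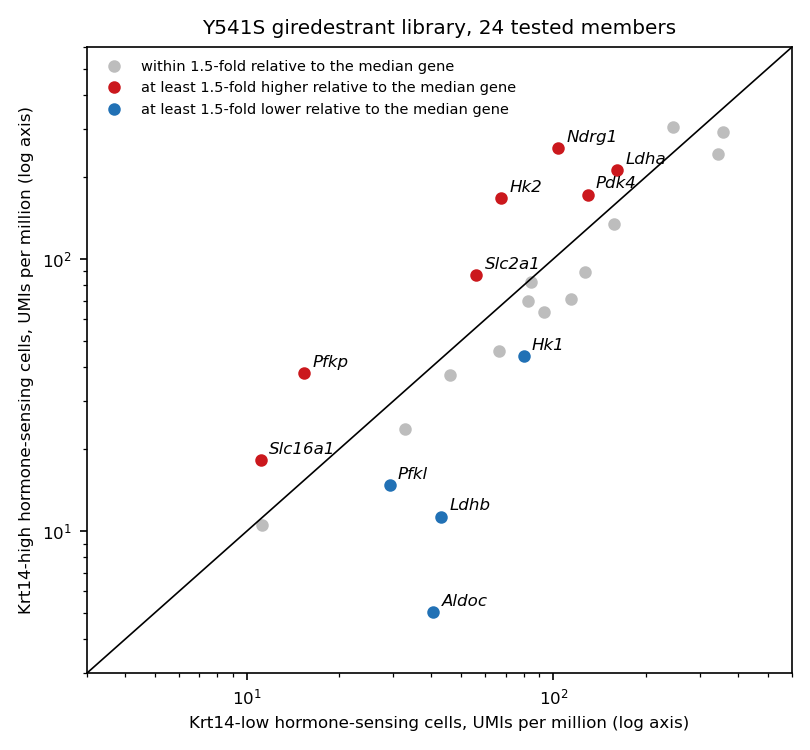
Level of the 24 tested members in Krt14-high (y axis) against Krt14-low (x axis) hormone-sensing cells of the Y541S giredestrant library, in CPM on log axes, with the diagonal marking equal levels. Colours mark 1.5-fold relative to the median gene, and Hk2, Ndrg1 and Pfkp stand highest above the diagonal.

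A further 99 genes of the same pathways, in 8 lists, gave the surroundings. In hormone-sensing Krt14-low cells 51 were tested, of which 4 were higher and 19 lower with giredestrant in WT, and 5 and 23 in Y541S, where 14.3% and 18.1% of all genes were called in WT and 16.6% and 22.7% in Y541S. Among 17 other hypoxia-induced genes tested there, 1 was higher and 7 lower in WT and 1 and 10 in Y541S, on the same backgrounds. P4ha2, a collagen prolyl hydroxylase, went from 132 to 9.36 CPM in WT and from 195 to 42.1 CPM in Y541S (vehicle to giredestrant). Adm, the vasodilator adrenomedullin, went from 37.01 to 3.37 CPM in WT, and Bhlhe40, a transcriptional repressor, from 108 to 50.3 CPM in Y541S. The glucose importer Slc2a3 went from 47.2 to 0.0562 CPM in WT (884 to 2 UMIs, a relative log2 ratio of -10.05 with a 95% counting interval of -13.097 to -8.19), and from 22.04 to 10.9 CPM in Y541S. G6pdx, which opens the pentose phosphate path, went from 208 to 42.1 CPM and from 128 to 73.5 CPM. Bsg, the chaperone of lactate transporters, went from 1033 to 659 CPM and from 1090 to 485 CPM, whereas its relative Emb went from 5.501 to 0.815 CPM in WT and from 3.15 to 152 CPM in Y541S. Pcx, the carboxylase that feeds pyruvate into the citric acid cycle, went from 40.3 to 15.3 CPM in WT and from 31.4 to 63.8 CPM in Y541S, and Ldhd, a D-lactate dehydrogenase, from 29.6 to 6.7996 CPM and from 29.05 to 12.6 CPM. P4ha2, Adm, Slc2a3, Emb and Ldhd were under 10 CPM in at least 1 library. They passed the filter through the libraries where they were high, so their calls are no support for these counts.

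In secretory cells 48 of the 99 were tested, with 1 higher and 4 lower in WT and 5 and 7 in Y541S, shares near those of all genes (4.14% and 5.17%, 10.2% and 15.1%). Slc5a8, a sodium-coupled monocarboxylate transporter, went from 235 to 142 CPM in WT and from 238 to 98.7 CPM in Y541S, and Cited2, which restrains hypoxia-inducible factors, from 28.3 to 59.9 CPM and from 32.1 to 76.6 CPM. Angptl4, a lipase inhibitor, went from 33.1 to 2.88 CPM in WT, and so passed the filter through libraries where it was high. In basal cells 51 were tested, with 2 higher and 5 lower in WT (6.47% and 7.95% of all genes) and 4 and 3 in Y541S (5.74% and 7.8%). Ddit4, an mTOR inhibitor induced by stress and hypoxia, followed Vegfa there, from 50.9 to 30.3 CPM in WT and from 22.8 to 61.1 CPM in Y541S. Epas1, which encodes a relative of Hif1a, went from 40.2 to 84.9 CPM in Y541S. The part of other cell types in that rise was not tested.

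The remaining members were near the floor. In hormone-sensing Krt14-low cells Pfkm, Eno2, Pdk1, Pdk2, Slc16a3, Car9 and Egln3 were not tested and lay between 0.0534 and 14.1 CPM. In secretory cells the 5 that were not tested (Pfkm, Eno2, Slc16a3, Bnip3 and Car9) lay between 0.194 and 6.85 CPM, and in basal cells the 7 (Pfkm, Aldoc, Eno2, Pdk1, Pdk2, Slc16a3 and Car9) between 1.07 and 14.1 CPM. Car9, a common hypoxia marker, reached 4.85, 3.16, 3.65 and 6.81 CPM in basal cells. Aldoa has 2 rows in the gene list, and the row not used held 20 of 83458 UMIs over the 4 classes and libraries.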

How the data were processed

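Raw UMI counts were deposited as 1 matrix per library, made by the authors with Cell Ranger 6.0.1 per the file headers, on GRCm38 per the submitters' processing notes. The deposited barcode and gene lists hold other, textual fields in matrix order. The annotation release is not given in the sources used here. The members, lists and role groups were chosen with earlier results of these data known.

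Barcodes with at least 1000 UMIs, at least 500 genes and at most 15% mitochondrial UMIs were kept. Classes needed gate genes at 10 (hormone-sensing: Esr1, Prlr, Areg, Foxa1; secretory: Wfdc18, Csn3, Elf5, Kit) or 20 (basal: Acta2, Myh11, Mylk, Tagln) UMIs per 10000, and hormone-sensing cells were split at 3 of Krt14. Cells passing several gates or none were left out. Doublets were removed only in an alternative (Scrublet in scanpy 1.11.5, at 0.8% per 1000 cells). Counts were summed per class and library. Library ratios carry exact conditional binomial 95% intervals, which cover counting error only. Class comparisons used edgeR 4.0.16 (quasi-likelihood, library as a block, 12 sums, Benjamini-Hochberg adjustment over 17066 genes), with DESeq2 1.42.0 as an alternative. Both procedures were tested on simulated data. All members are accounted for. Values in full were given for members past 1.5-fold with giredestrant or called between classes, and other pathway genes were named by the size of their ratio. Promoter windows that overlapped an annotated exon were not printed, a limit added after the windows were seen, and gene positions came from GENCODE.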

Additional observations from a re-analysis of the deposited data

Results flagged for a closer look

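In 8 instances a member was at least 1.5-fold lower with giredestrant in one genotype and at least 1.5-fold higher in the other, within the same cell class. The share of all genes with such opposite calls was not computed, so this count only describes. Each instance rests on 1 pair of libraries per genotype, and the difference between the genotypes was not tested. For Pdk4 the relative log2 ratio with giredestrant in Y541S minus that in WT was 5.45 in hormone-sensing Krt14-low cells, 5.41 in secretory cells and 1.53 in basal cells. In basal cells the same difference was 2.43 for Vegfa, 2.07 for Hk2 and 1.998 for Ndrg1. In secretory cells it was 1.72 for Vegfa and -1.43 for Pdk3, the member whose direction was opposite to the others. The Pdk4, Vegfa, Hk2 and Ndrg1 differences were all towards a higher level with giredestrant in Y541S.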

How the results depend on the processing

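Alternatives for the counts of members were computed 324 times, and 304 stayed within 1.5 times of the reported count. Over 1036 recomputed ratios of called members, 1003 kept the direction and the fold, 33 kept the direction only, and 0 changed direction. Without the shift to the median gene, hormone-sensing WT giredestrant calls were 6 higher and 5 lower, secretory Y541S against WT with giredestrant had 3 lower, basal WT giredestrant 2 higher and basal Y541S giredestrant 1 lower. With no CPM filter, hormone-sensing WT giredestrant had 8 higher, secretory Y541S giredestrant 4 lower, basal WT giredestrant 3 higher, basal Y541S against WT with giredestrant 4 lower, and secretory Y541S against WT with giredestrant 2 lower, as also with TMM scaling (2). With cells counted in every gate they passed, the last was 3, secretory Y541S against WT under vehicle had 1 lower, and Krt14-high against Krt14-low had 2 lower. With cells weighted equally, Y541S against WT under vehicle had 1 higher and 1 lower in secretory cells and 1 higher in basal cells. With cells of 5000 or more UMIs, an alternative chosen after seeing the data, basal Y541S giredestrant had 1 lower. Most of these are counts of 4 or fewer, and the cause was not tested. Shares of all genes were not computed under these alternatives.

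Leaving out 1 library at a time gave 6 to 10 higher and 7 to 9 lower members for hormone-sensing against secretory cells, 4 to 10 higher and 10 to 13 lower for hormone-sensing against basal cells, and 5 to 6 higher and 7 to 15 lower for secretory against basal cells. The 4 for hormone-sensing against basal cells and the 7 for secretory against basal cells came without the Y541S vehicle library. Calls over all genes fell there too, from 10688 to 8125 and from 8639 to 5923. The replicate numbers only name samples, and for giredestrant against vehicle and Y541S against WT No paired analysis was possible because each group holds 1 library, while the class comparisons were paired by library. Depth limits members under 10 CPM most, such as Car9, Eno2 and Slc16a3.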
